A study of Homo sapiens with 4 samples.

Results

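The neural-type immunoglobulin adhesion molecules were examined as a set of 9 genes listed by symbol, out of 63856 genes in the count table, in MCF10A cells with and without HSF1 overexpression. The set holds CADM1, CADM3 and CADM4 (cell adhesion molecules of the nectin-like family), SDK1 and SDK2 (sidekicks), CNTN1 and CNTN3 (contactins), and L1CAM and NRCAM (the L1 family). The genes were chosen with their values in this comparison known, so what follows for them is a description and no test is given. MCF10A is an established non-tumorigenic human breast epithelial line. RNA-seq of total RNA covered 2 libraries of wild type (WT) cells and 2 of cells carrying HSF1 (HSF1-pLVX), which had been stably transduced with a lentivirus holding the human HSF1 coding sequence and selected with puromycin. Whether these were 1 clone or a mixed population is not stated. WT cells were unmodified, and cells with the empty vector were not analysed here, so transduction and selection cannot be told apart from the added HSF1. The labels give all 4 cultures the same medium, with horse serum, insulin, hydrocortisone, EGF and cholera toxin, the last of which the study's methods do not name.

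Immunoglobulin adhesion molecules are cell surface proteins that bind a like or related molecule on the facing cell without needing calcium. In the nervous system they match axons with their partners: sidekicks sort synapses into layers, contactins are held in the membrane by a lipid anchor and work together with other receptors at axon contacts, and L1CAM and NRCAM tie the membrane to the spectrin skeleton through ankyrins. CADM proteins join axons to the glia that wrap them, and several also sit at the lateral membranes of epithelial cells. L1CAM is in addition known from the invasive edge of carcinomas.

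HSF1 itself, the check of the labels, measured 194.8 ± 7.94 CPM in WT and 990.5 ± 11.46 CPM in HSF1-pLVX cells (SD, n = 2 each), where CPM are counts scaled to a common library size with TMM factors. The log2 fold change (SE) was 2.35 (0.0999), with adjusted p = 1.145e-10 by the quasi-likelihood test of edgeR. The library totals ran from 18688109 to 24184285 counts. Mammary epithelial markers were present in every library: all 14 listed markers passed the filter on low counts, and their summed level was 24970 to 25900 CPM in WT and 13550 to 14250 CPM in HSF1-pLVX cells. In that list 2 genes were higher (14.3%) and 8 lower (57.1%) beyond 2-fold at an adjusted p of 0.05. Of all tested genes 14.9% were higher and 14% lower by the same limits. KRT17, the marker with the highest CPM, fell from 7194 ± 41.18 to 1220 ± 51.47 CPM, and KRT5 rose from 2113 ± 35.87 to 4592 ± 421.8 CPM (SD, n = 2 each). In bulk RNA, fewer cells of a type and less RNA per cell cannot be told apart.

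RefSeq promoters (GRCh38.p14) were at hand for 7 of the 9 genes, in 11 windows of 300 bases, and not for CADM1 or SDK2. The 250 bases before the start are printed 5′ to 3′ for the gene that rose among these and for both that fell most, with CG dinucleotides in capitals, to show how unlike they are in CpG content.
CADM3, chr1:159171365-159171614, plus strand: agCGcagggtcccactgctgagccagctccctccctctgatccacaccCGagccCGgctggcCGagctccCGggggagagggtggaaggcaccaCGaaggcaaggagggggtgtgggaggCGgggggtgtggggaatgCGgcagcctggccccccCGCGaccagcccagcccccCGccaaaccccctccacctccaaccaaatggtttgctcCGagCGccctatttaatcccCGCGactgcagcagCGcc
CNTN3, chr3:74614660-74614909, minus strand: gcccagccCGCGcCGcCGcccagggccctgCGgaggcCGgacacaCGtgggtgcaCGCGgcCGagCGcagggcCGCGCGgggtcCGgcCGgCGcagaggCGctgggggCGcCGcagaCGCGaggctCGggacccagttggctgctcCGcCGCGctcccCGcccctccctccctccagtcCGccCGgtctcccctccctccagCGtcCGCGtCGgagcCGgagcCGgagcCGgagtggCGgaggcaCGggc
L1CAM, chrX:153875945-153876194, minus strand: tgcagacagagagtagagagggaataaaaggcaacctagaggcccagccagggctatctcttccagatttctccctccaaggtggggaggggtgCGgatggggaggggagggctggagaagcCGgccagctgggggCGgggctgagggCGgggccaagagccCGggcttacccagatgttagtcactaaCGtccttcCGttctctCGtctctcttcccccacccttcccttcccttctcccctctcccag
Over their whole 300-base windows CADM3 had 23 CG dinucleotides, CNTN3 43 and L1CAM 10, against a median of 14 over all 35116 promoters of the table. The other L1CAM window, not printed, had 8. Of genes that changed by less than 2-fold, CADM4 had 42 and the NRCAM windows 38, 1 and 3. The transcript start of CADM3 lies 6 bases from the first counted base of the gene. The CNTN3 start lies 93519 bases upstream of the counted span and the L1CAM start 33279 bases inside it, so neither window marks the outer end of the gene as the authors counted it.

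The heat shock element, to which HSF1 binds, was searched in all 11 windows as 2 facing units, GAANNTTC or TTCNNGAA, each of which reads the same on both strands. Of the 11 windows 1 held a match, an NRCAM window that opens within the gene, 128191 bases from the outer start of the counted span. Such a match was held by 13.5% of all promoters. The heat shock element of 3 units, which contains a shorter form, was searched on both strands and occurred in 0 of the 11 windows and in 0.49% of all promoters. These counts describe the letters in these windows only.

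The 9 genes did not move together. By fitted fold change beyond 2-fold, CADM3 and SDK2 were higher in HSF1-pLVX cells and CNTN3 and L1CAM were lower, CADM4 was lower by just under that size, and the NRCAM groups overlapped. SDK1 was scarce in both, CNTN1 had a single count, and CADM1 had none. Of the 9 genes, 6 passed edgeR's filter on low counts. Beyond the same 2-fold size, without a test, 15.1% of the 15830 tested genes were higher and 14.1% lower, and since the 9 genes were chosen on this contrast nothing is read from their counts of 2 and 2. By separation alone, CADM3 and SDK2 were higher and CADM4, CNTN3 and L1CAM lower with no overlap between the groups, as were 42.1% and 41% of all tested genes. SDK1, which was not tested, had 6 counts in both WT replicate 2 and HSF1-pLVX replicate 1. Only after scaling did its groups not overlap, at 0.3229 and 0.239 CPM in these 2 libraries.

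**Figure D1:**
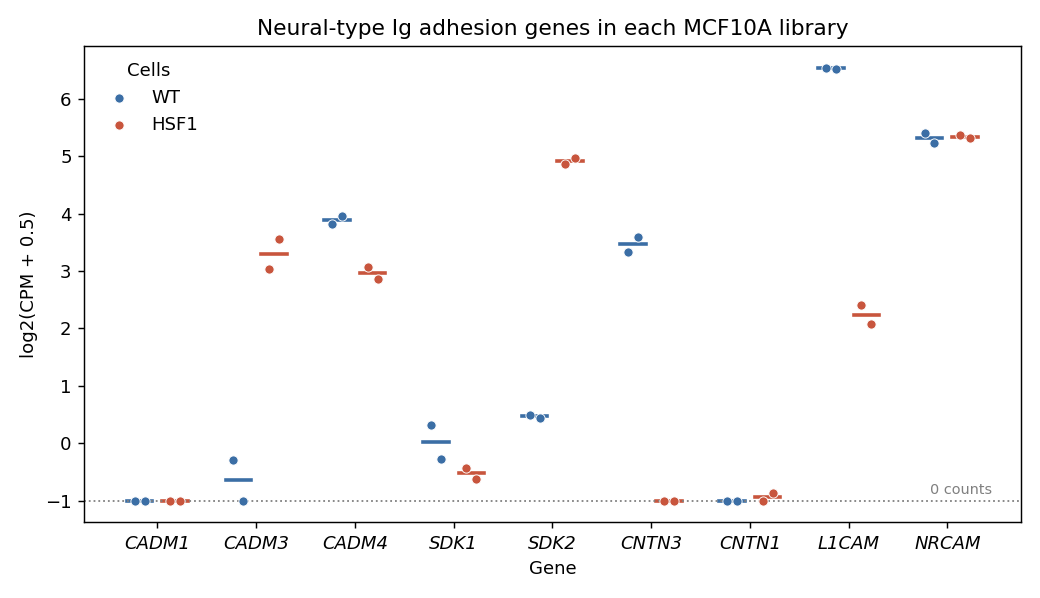
Level of each of the 9 genes in each library, as log2(CPM + 0.5), with WT libraries in blue, HSF1-pLVX libraries in red and the mean of each pair as a bar. CADM3 and SDK2 stand higher and CNTN3 and L1CAM lower in both HSF1-pLVX libraries, the NRCAM libraries interleave, and CADM1 lies at 0 counts throughout.

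CADM3 (ENSG00000162706.12, chromosome 1 of hg38, 159171609 to 159203313, plus strand) is the CADM member best known from axons. It had 6 and 0 counts in WT replicates 1 and 2 and 194 and 225 counts in HSF1-pLVX replicates 1 and 2. As levels these were 0.3196 and 0 CPM against 7.727 and 11.33 CPM. Both HSF1-pLVX libraries lay above both WT libraries. From summed counts, the HSF1-pLVX level was 58.0 times the WT level, with an exact 95% interval of 26.4 to 159 that covers counting error only. The fitted log2 fold change (SE) was 5.83 (0.462). It rests on the 6 counts of WT replicate 1: without WT replicate 2 it was 4.84, and without WT replicate 1 no WT count remained and no fold could be measured.

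Other annotated genes touch the CADM3 span. CADM3-AS1, on the opposite strand, shares 8989 bases of it and had 0 counts in both WT libraries and 9 and 5 in the HSF1-pLVX libraries. The strand setting of the counting is not stated, so reads of the sense and antisense genes may not be separable. ACKR1, a chemokine-binding receptor of red cells and venules, begins 7 bases before the CADM3 span ends. Its WT libraries held 0 and 1 counts and its HSF1-pLVX libraries 60 and 63.

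CADM4 (ENSG00000105767.2, chromosome 19, 43622368 to 43639839, minus strand), which glia use to contact axons and which epithelia also express, was present in every library. Its levels were 13.53 and 14.96 CPM in WT and 7.927 and 6.795 CPM in HSF1-pLVX cells. The libraries of both groups did not overlap, and the fitted log2 fold change (SE) was -0.95 (0.138), just inside the 2-fold limit. CADM1 (ENSG00000182985.17, chromosome 11, 115169218 to 115504957, minus strand), an adhesion molecule often silenced in tumours, had 0 counts in all 4 libraries. A count of 0 allows up to 3 counts, or 0.1195 to 0.1615 CPM depending on the library, for counting error only, and the 3 other genes annotated inside the CADM1 span were at 0 as well. A 0 in this table can also arise in the counting: EHMT2, a histone methyltransferase that most cells use, was listed at 0 in all 4 libraries, and its symbol stands on 7 rows of the authors' log2-like table, of which 2 hold values above that table's floor. Each of the 9 genes has 1 row there.

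SDK2 (ENSG00000069188.16, chromosome 17, 73334384 to 73644089, minus strand) had 17 and 16 counts in WT and 715 and 612 counts in HSF1-pLVX cells. The levels were 0.9056 and 0.8611 CPM against 28.48 and 30.81 CPM. The replicates of each group lay close together and far from the other group. The fitted fold was 33.3, with a log2 fold change (SE) of 5.06 (0.17), and 41 of the 15830 tested genes had a higher one. Leaving out any 1 library gave values from 5.00 to 5.12.

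SDK1 (ENSG00000146555.18, chromosome 7, 3301448 to 4269000, plus strand), the other sidekick, did not follow. It had 14 and 6 counts in WT and 6 and 3 in HSF1-pLVX cells, too few to pass the filter. The ratio of summed counts, HSF1-pLVX over WT, was 0.374 with an exact 95% interval of 0.150 to 0.859 for counting error only.

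CNTN3 (ENSG00000113805.8, chromosome 3, 74262568 to 74521140, minus strand), a contactin of brain neurons, had 180 and 215 counts in WT and 0 counts in both HSF1-pLVX libraries. The WT levels were 9.589 and 11.57 CPM. Set against 3 counts per library, the most that a count of 0 allows, the HSF1-pLVX level of CNTN3 was at least 78.2-fold lower than in WT. CNTN1 (ENSG00000018236.14, chromosome 12, 40692442 to 41072418, plus strand), the contactin of axons at the node of Ranvier, was close to absent in both groups, with 0 counts in 3 libraries and 1 count in HSF1-pLVX replicate 2, and no fold is given.

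L1CAM (ENSG00000198910.12, chromosome X, 153861514 to 153909223, minus strand) had the highest level per length of the 9 genes in WT cells. It had 1742 and 1695 counts there and 120 and 74 in HSF1-pLVX cells, or 92.8 and 91.23 CPM against 4.78 and 3.725 CPM. Every HSF1-pLVX value was far below every WT value. The fitted level was 21.4-fold lower, with a log2 fold change (SE) of -4.42 (0.118), and 127 tested genes had a lower one. Genes overlapping its span had between 0 and 11 counts per library.

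NRCAM (ENSG00000091129.19, chromosome 7, 108147623 to 108456717, minus strand), the other L1-family member, had 42.03 and 36.92 CPM in WT and 40.59 and 39.56 CPM in HSF1-pLVX cells. The libraries interleaved. The fitted log2 fold change (SE) was 0.02 (0.0929), and it was -0.09 without WT replicate 2 and 0.13 without WT replicate 1.

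To compare levels between genes, counts were divided by counted gene length and scaled to the same total in each library (TPM). In WT cells L1CAM led with 38.7 ± 1.06 TPM, followed by CADM4 with 19.9 ± 2.19, NRCAM with 15.03 ± 0.784 and CNTN3 with 6.49 ± 1.11 TPM (SD, n = 2 each), and none of these neighbours overlapped. SDK2 (0.238 ± 0.000917 TPM), SDK1 (0.137 ± 0.072) and CADM3 (0.126 ± 0.178) came far below. CADM3 overlapped both sidekicks, at 0.2524 and 0 TPM, while SDK2 lay above SDK1 in both WT libraries. In HSF1-pLVX cells NRCAM led with 14.4 ± 1.09 TPM, followed by CADM4 with 9.69 ± 1.61 TPM. SDK2 (7.51 ± 0.0173) and CADM3 (7.24 ± 1.53) overlapped each other, and L1CAM followed with 1.70 ± 0.394 TPM (SD, n = 2 each).

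Added up, the 9 genes made 78.24 and 82.95 TPM in the WT libraries and 41.73 and 39.48 TPM in the HSF1-pLVX libraries. L1CAM held 48.54 and 47.59% of that sum in WT and 4.731 and 3.591% in HSF1-pLVX cells. SDK2 went from 0.3029 and 0.2873% to 18.03 and 18.99%, and CADM3 from 0.3226 and 0% to 14.76 and 21.07%. Within families, the summed CADM level changed little, at 18.55 and 21.4 TPM in WT and 16.98 and 16.87 TPM in HSF1-pLVX cells, with CADM3 and CADM4 moving in opposite directions. The sidekick sum went from 0.4248 and 0.3243 TPM to 7.584 and 7.534 TPM, the contactin sum from 5.701 and 7.275 to 0 and 0.01898 TPM, and the L1 sum from 53.56 and 53.95 to 17.16 and 15.06 TPM.

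**Figure D2:**
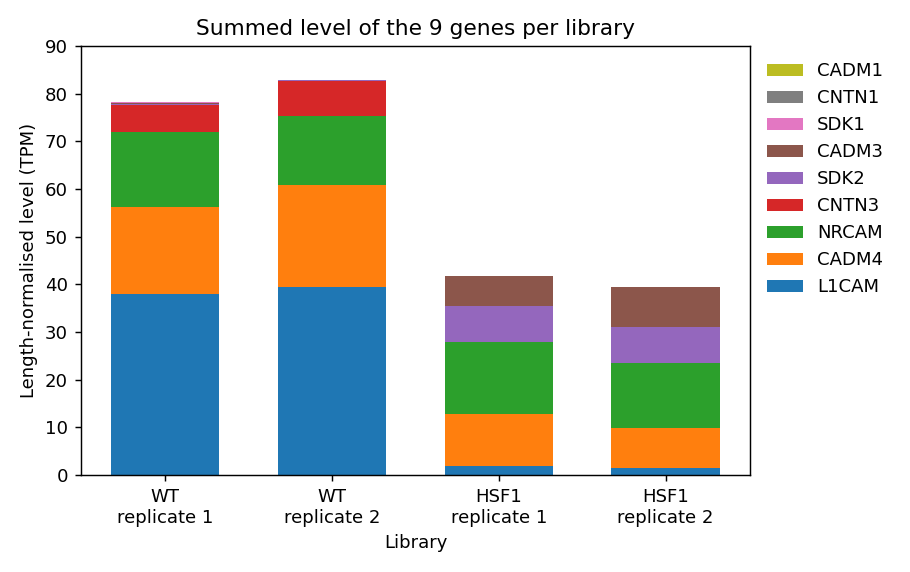
Length-normalised level (TPM) of the 9 genes stacked for each library, with a colour per gene. The WT stacks reach 78.24 and 82.95 TPM, 48.54 and 47.59% of it L1CAM, and the HSF1-pLVX stacks 41.73 and 39.48 TPM with wider SDK2 and CADM3 blocks, a narrow L1CAM block and no CNTN3.

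The genes whose levels over the 4 libraries came closest were found by the Euclidean distance of log2(CPM + 0.5) among 12674 protein-coding tested genes. For CADM3 they were CD1D, PLA2G2A and NECAB2, at distances of 0.665, 0.721 and 0.817. For SDK2 they were S100A7, TP73 and LRP4 at 0.289, 0.716 and 0.825, and for CNTN3 CRCT1, STAC and ODAPH at 0.144, 0.488 and 0.762. For L1CAM, added after its values were seen, they were DYSF, MYL9 and FST at 0.194, 0.514 and 0.741. With 4 libraries in 2 groups this measure mostly matches the level in each group.

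Other immunoglobulin adhesion genes were followed to see how the 9 genes sit among their relatives. Of 52 listed genes, 34 passed the filter. At an adjusted p of 0.05 and beyond 2-fold, in edgeR's quasi-likelihood test, HSF1-pLVX cells had 6 of the 34 higher (17.6%) and 10 lower (29.4%), against 14.9% higher and 14% lower of all tested genes. Their median log2 fold change was -0.05, against 0.02 for all tested genes. These shares are a count over a list chosen with earlier results of these data known, and no test of the list was made.

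Among the nectins, which pair across epithelial adherens junctions and are the closest relatives of the CADM family, NECTIN1 rose from 135.0 and 128.7 CPM in WT to 747.1 and 828.6 CPM in HSF1-pLVX cells (log2 fold change 2.58, standard error 0.103, adjusted p = 6.686e-11, edgeR). NECTIN4 fell from 93.49 and 103.2 to 18.72 and 12.63 CPM, and NECTIN2 from 152.5 and 150.7 to 58.39 and 58.69 CPM, with log2 fold changes of -2.64 and -1.37. NECTIN3, at 3.909 ± 0.104 and 4.742 ± 1.01 CPM (SD, n = 2 each), was not called (adjusted p = 0.245, edgeR). Of the 4 nectins, 1 was therefore called higher and 2 lower, where 14.9% of all tested genes were higher and 14% lower. Nothing is read from a count over 4 genes.

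In the L1 family, NFASC, the neurofascin of axon initial segments, rose from 0.8524 and 0.9688 to 4.74 and 4.732 CPM (log2 fold change 2.37, standard error 0.261). CHL1, the fourth L1-type gene, had no more than 2 counts in any library. In the contactin family CNTN2, CNTN4, CNTN5 and CNTN6 had at most 3 counts in any library. NEGR1, an IgLON protein of neurons held by the same kind of lipid anchor as the contactins, had 106 and 123 counts in WT and 1 count in each HSF1-pLVX library. It was at least 45.3-fold lower when set against 3 counts per library (adjusted p = 4.227e-09, edgeR). The IgLON relatives OPCML and NTM had at most 1 count in any library. LSAMP had 6 and 3 counts in WT and 2 and 0 in HSF1-pLVX cells. IGLON5 had 4 and 0 counts in WT and 3 and 2 in HSF1-pLVX cells, and both were too scarce to pass the filter.

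JAM3, a junctional adhesion molecule, rose from 1 and 5 counts in WT to 81 and 62 in HSF1-pLVX cells (log2 fold change 4.25, standard error 0.442), and this value was 5.73 without WT replicate 2 and 3.55 without WT replicate 1. The receptor phosphatase PTPRS, which binds proteoglycans and synaptic partners, rose from 41.77 and 33.75 to 166.1 and 162.1 CPM, and KIRREL1, a nephrin relative, from 34.52 and 40.2 to 130.2 and 133.7 CPM. MCAM, an adhesion molecule of endothelium and melanoma, fell from 307.5 and 305.1 to 57.96 and 45.96 CPM. ROBO4 fell from 8.044 and 8.127 to 2.35 and 1.107 CPM, with a log2 fold change of -2.18. This value was -2.86 without HSF1-pLVX replicate 1 and -1.77 without HSF1-pLVX replicate 2.

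**Figure D3:**
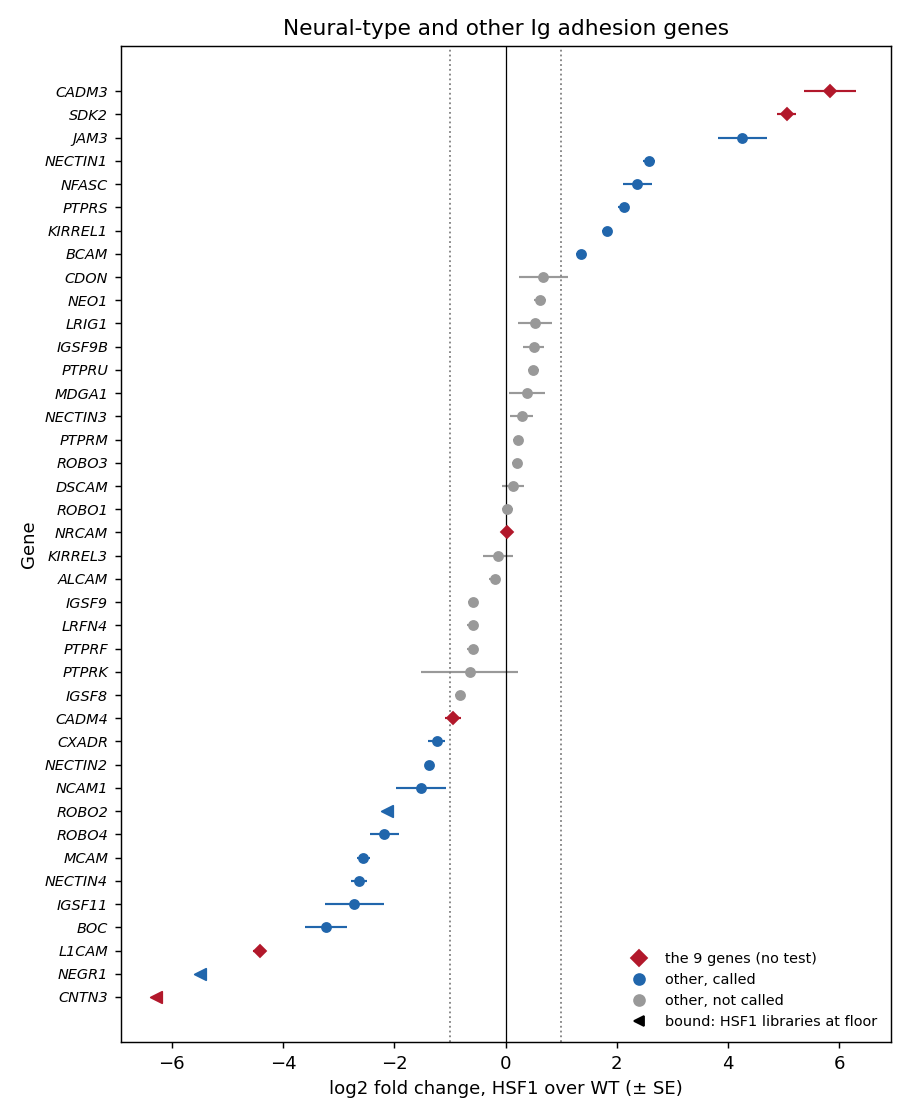
Log2 fold change of HSF1-pLVX over WT, with its standard error, for the 6 of the 9 genes that passed the filter (diamonds, no test) and the 34 relatives that did (circles, blue where called beyond 2-fold at an adjusted p of 0.05); triangles are bounds where both HSF1-pLVX libraries had 3 counts or fewer, and dotted lines mark 2-fold. CADM3 and SDK2 lie above every relative, and CNTN3, NEGR1 and L1CAM form the lower end. Where an HSF1-pLVX library held a count above 0, as for NEGR1, the triangle may not cover all counting error. The 9 genes were chosen with their values in this comparison known, so their place among the relatives is a description only.

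Binding partners, sheddases and cytoplasmic anchors of the 9 genes were counted in the same way. Of 41 listed genes 29 passed the filter, of which 7 were higher (24.1%) and 4 lower (13.8%) beyond 2-fold. Of all tested genes 14.9% were higher and 14% lower. The median log2 fold change of the 29 partner genes was 0.20. Ankyrins, which hold L1CAM and NRCAM to spectrin, were among the higher genes: ANK3 rose from 32.02 and 28.53 to 66.48 and 62.82 CPM (log2 fold change 1.10, standard error 0.0917, adjusted p = 1.063e-07, edgeR), and ANK1 from 3.25 and 2.207 to 7.727 and 7.651 CPM. Without WT replicate 2 the value of ANK3 was 0.997, just under the 2-fold limit, and 6 partners were called higher.

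The contactin-associated proteins CNTNAP1 and CNTNAP3 rose by 1.66 and 2.06 on the log2 scale. CNTN1, the contactin that CNTNAP1 pairs with at axons, had 1 count in all. CNTNAP3 is uncertain, since near-identical copies may share its reads. Its value was 2.65 without WT replicate 2 and 1.65 without WT replicate 1. Ezrin (EZR), which links membrane proteins to actin and is known to bind the tail of L1CAM, fell from 1345 and 1367 to 474.4 and 432.4 CPM (log2 fold change -1.58, standard error 0.103). Tenascin-C (TNC), a matrix ligand of contactins, fell by 1.80, the junction scaffold MAGI1 by 1.72 and the Rac activator TIAM1 by 1.34 on the log2 scale.

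Of the sheddases that release L1CAM and related proteins from the cell surface, ADAM10 fell from 166.4 ± 9.57 CPM in WT to 125.3 ± 7.53 in HSF1-pLVX cells. ADAM17 rose from 41.61 ± 0.377 to 61.4 ± 2.12 CPM and BACE1 from 42.31 ± 4.35 to 65.59 ± 0.995 CPM (SD, n = 2 each). Each changed by less than 2-fold, with adjusted p = 0.00114, 3.82e-05 and 2.78e-05 in that order (edgeR). Of the listed synaptic partners, NLGN3 was present at 31 and 46 counts in WT and 29 and 27 in HSF1-pLVX cells, or 2.064 ± 0.583 and 1.257 ± 0.144 CPM (SD, n = 2 each). This is -0.72 on the log2 scale, under 2-fold (adjusted p = 0.0497, edgeR). NRXN2, NRXN3, NLGN1 and NLGN4X had at most 2 counts in any library.

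REST silences neuronal genes, L1CAM among them, outside the nervous system. REST went from 58.44 and 59.31 to 37.68 and 32.01 CPM, which is -0.75 (SE 0.0948) on the log2 scale (adjusted p = 7.045e-06, edgeR). Of 12 listed genes for REST and its corepressors 11 were tested, of which 1 was higher (9.09%) and 0 were lower beyond 2-fold. Of all tested genes 14.9% were higher and 14% lower. By any size, 5 of the 11 were higher and 2 lower, both at an adjusted and at an unadjusted p of 0.05. Beyond 2-fold, an unadjusted p and DESeq2's Wald test also gave 1 higher and 0 lower. The gene higher beyond 2-fold, named after its values were seen, was RCOR2, with 4 and 5 counts in WT and 34 and 24 in HSF1-pLVX cells.

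Markers of neuronal and glial cells were checked because the 9 genes are best known there. Of 21 listed markers, 8 had 0 counts in all 4 libraries, namely ELAVL4, STMN2, GAP43, NEFL, NEFM, DCX, SOX10 and OLIG2, and 7 passed the filter. The summed level of the list was 270.8 and 287.8 CPM in WT and 92.77 and 81.75 CPM in HSF1-pLVX cells. Of the 7 tested markers, 4 were lower (57.1%) and 0 were higher beyond 2-fold at an adjusted p of 0.05 in edgeR. Of all tested genes 14% were lower and 14.9% higher by the same limits. The counts of 4 and 0 were the same at an unadjusted p of 0.05 in edgeR and under DESeq2's Wald test. With no filter on low counts 4 were lower and 1 was higher.

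MAP2, a microtubule protein of dendrites, fell from 124.3 and 135.2 to 13.62 and 8.155 CPM, and TUBB3, a tubulin typical of neurons, from 33.67 and 43.0 to 1.633 and 1.762 CPM (log2 fold changes -3.55 and -4.50). TUBB3 is uncertain, since close paralogs may share its reads. SYT1, a synaptic vesicle protein, fell from 4.579 ± 0.298 to 0.1698 ± 0.0978 CPM (SD, n = 2 each). On the log2 scale this was -4.64, or -5.41 without HSF1-pLVX replicate 1 and -4.22 without HSF1-pLVX replicate 2. The fourth was INA, a neuronal intermediate filament named after its values were seen, with 15 and 17 counts in WT and 0 in HSF1-pLVX cells. MBP, a myelin protein also known from other tissues, was lower by less than 2-fold, at 105.6 and 102.2 against 74.01 and 69.62 CPM. SYP averaged 0.6145 CPM in WT and 0.7454 CPM in HSF1-pLVX cells and was not called.

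Of 10 fibroblast markers 3 were tested: DCN was higher (0.1074 ± 0.0765 and 4.062 ± 0.449 CPM), FAP lower (203.9 ± 17.61 and 39.92 ± 6.98 CPM) and COL1A1 not called (8.79 ± 2.26 and 9.963 ± 1.06 CPM; SD, n = 2 each, WT first). Both WT libraries of DCN had 3 counts or fewer, so its fitted log2 fold change of 5.16 does not measure a fold. That fitted value was 6.08 without WT replicate 2 and 4.61 without WT replicate 1. The part of any other cell type in the values of the 9 genes was not tested.

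**Figure D4:**
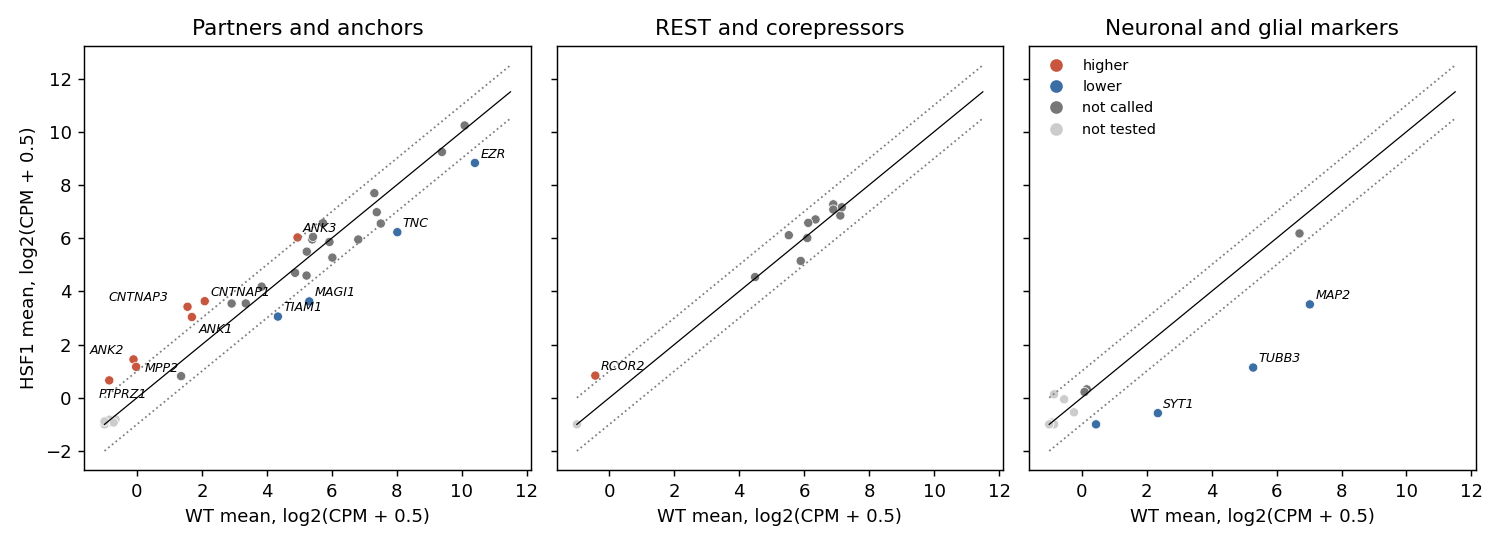
Mean log2(CPM + 0.5) in HSF1-pLVX cells against WT cells for the listed partners and anchors, REST and its corepressors, and neuronal and glial markers, with the diagonal for equal levels and dotted lines for 2-fold. MAP2, TUBB3 and SYT1 lie far below the diagonal, the REST group lies close to it except for RCOR2, and partners lie on both sides.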

How the data were processed

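RNA-seq counts of 4 MCF10A libraries (2 WT, 2 HSF1) were used. Per the labels and the study's methods, the authors aligned paired-end reads to hg38 with HISAT2 2.0.5, processed them with SAMtools 1.13 and counted them per gene with featureCounts 1.6.5, and deposited raw counts. The strand, overlap and multi-mapping settings are not given in the sources used here. The authors also deposited log2-like values normalized with DESeq2 1.32.0, which were used only as an alternative for the 9 genes and to count the rows a symbol has. Every column of sample values belonged to a sample of the series.

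Counts were fitted with edgeR 4.0.16 in R 4.3.3 (filterByExpr defaults, TMM, quasi-likelihood test, no replicate block since a block would leave each gene 1 residual degree of freedom, Benjamini-Hochberg over 15830 genes), and standard errors were derived from its F statistic. Calls needed an adjusted p under 0.05 and a log2 fold change beyond 1. The method was also run on simulated data in which no gene with few counts was changed, so that run does not cover such genes. Symbols were matched by Ensembl identifier. Library totals were 18688109 to 24184285 counts. Replicates differed by more than sampling noise (chi-square per degree of freedom 7.394 for WT, 9.094 for HSF1). The study calls the replicates biological but does not say whether they are separate transductions or cultures, so p-values measure the spread between these libraries. Where both libraries of a group had 3 counts or fewer, any fold given is set against 3 counts per library. For counts above 0 this may not cover all counting error.

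The members and lists were chosen with earlier results of these data known. Named list genes were the up to 5 with the largest called change per direction, with the same direction within both replicate numbers and at least 50 counts in each library of the higher group, and for marker lists the most abundant. Alternatives were DESeq2's size factors, library size only, no filter, DESeq2 1.42.0's Wald test, the replicate block, each library left out, and, added after seeing the data, a crossed block. Protein sequences were not analysed here, and some list genes are not reported here.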

Additional observations from a re-analysis of the deposited data

How the results depend on the processing

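The direction of the 34 list genes chosen by the naming rule and of HSF1, and their side of the adjusted p of 0.05, held under every alternative that was run. For the 6 fitted genes of the set, 13 of 66 alternative values lay more than 1 SD of the replicates from the reported one, and those beyond 2-fold kept their sign. The number of the 9 genes at least 2-fold lower was 2, and 3 to 4 with a library left out, where the lone library of a group is assumed to vary like the other group. CADM4 crossed the limit without WT replicate 1, SDK1 without WT replicate 2 or HSF1 replicate 2, and both without HSF1 replicate 1, which gave 4. It was 3 with no filter and under DESeq2's Wald test, where SDK1 was fitted. The number at least 2-fold higher was 2, and 3 under DESeq2's Wald test or with no filter, where the single count of CNTN1 was fitted. The number of neuronal and glial markers called higher was 0, but 1 with no filter and 0 to 1 with a library left out. The authors' log2-like values place a count of 0 in the 9 genes at a floor of 3.1179, which sets the difference of -4.75 for CNTN3 (both HSF1 libraries) and 3.95 for CADM3 (WT replicate 2), so neither measures a fold. The difference was 4.21 for SDK2, -4.23 for L1CAM, -0.91 for CADM4 and within 0.05 of 0 for NRCAM.

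What libraries with the same replicate number have in common is not stated in the sources used here. Between such libraries, deviations from the group mean had a correlation of -0.015 over all tested genes and -0.114 over genes above 8 CPM. These values cover many genes at once, so they cannot decide whether single genes differ by replicate number, as PTPRK did (below). With the replicate block, 2365 genes were called higher and 2221 lower, against 2358 and 2218 without it, and 2374 and 2228 with the crossed pairing. With the replicate block the 9 genes again gave 2 higher and 2 lower, the relatives 6 and 10, the partners 7 and 4, REST and its corepressors 1 and 0, and the neuronal and glial markers 0 and 4. With a library left out the relatives gave 6 to 8 higher and 8 to 9 lower and the partners 6 to 7 higher and 4 to 5 lower. Under DESeq2's Wald test 8 relatives were lower. DESeq2's Wald test called 1840 higher and 2056 lower.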

Other observations

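The genes next to the 9 were read in the same fit, in a window of 500 kb on either side chosen after the values were seen. Over all tested genes 14.9% were called higher and 14% lower. Around CADM3, all 3 tested neighbours were higher in HSF1-pLVX cells. IFI16, an interferon-inducible DNA sensor, rose from 58.81 ± 3.02 to 204.2 ± 8.61 CPM, and its relative PYHIN1 from 0.9641 ± 0.0827 to 4.466 ± 0.233 CPM (SD, n = 2 each). ACKR1 was at least 17.3-fold higher when set against 3 counts per library. Around SDK2, 1 of 5 tested neighbours was called, CDC42EP4, which rose from 48.88 ± 3.21 to 176.7 ± 7.55 CPM and lies 22209 bases from SDK2. Around L1CAM, 4 of 22 tested neighbours were higher and 2 lower, and around CADM4 1 of 30 was higher and 8 lower. Around CADM1 1 of 1 was lower, around SDK1 1 of 3 was lower, around CNTN1 1 of 2 was higher and around NRCAM 2 of 8 were lower. CNTN3 had 0 tested neighbours in its window.

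PTPRK, a receptor phosphatase among the relatives, split by replicate number and not by group. It had 210 and 156 counts in replicate 1 of WT and HSF1-pLVX cells and 2 and 14 counts in replicate 2. It was not called (adjusted p = 0.531, edgeR's quasi-likelihood test). Its symbol stands on 2 rows of the authors' log2-like table, and the counts are those of 1 identifier.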
